A study of Mus musculus with 96 samples.

Results

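Sister cells that differed in the transcript of Trp63, the gene encoding p63, were compared across the transcriptome. Both daughters of 48 divisions of cultured horizontal basal cells (HBCs) were sequenced singly, and the read count of each gene was divided by the summed count of the ERCC spike-in, a mix of synthetic RNAs given to every lysate in equal amount. A pair was taken when the higher daughter had at least 1.5 times the scaled Trp63 count of the lower. This selected 35 of 48 pairs on their measured Trp63, so 70 of 96 cells entered the comparison as 35 Trp63-high and 35 Trp63-low sisters. The share of pairs was 72.9%, with an exact Clopper-Pearson 95% interval of 58.2% to 84.7% that covers counting error only. The other 13 pairs, with 26 cells, are given beside them where useful. Because the pairs and the side of each sister were fixed by Trp63 itself, its own ratio is a description of the choice and not a result.

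All cells came from wild type mice aged 6 to 8 weeks whose olfactory epithelium (OE) was taken 2 days after methimazole, an agent that strips the epithelium and activates its HBCs. The cells divided in culture after a change from a Tropoelastin to a Fibronectin coating, and the daughters were picked by hand. Every cell thus shared genotype, injury, coating switch and culture medium, and there was no treated or control group. No mouse or culture is named for any cell, so the 96 cells stand as 1 sample of 1 condition, and pairs are not replicates of it. No test or p-value is therefore given. Values over pairs are medians with their quartiles and the number of pairs in each direction.

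p63 is a transcription factor of the p53 family and the defining factor of basal cells in stratified and pseudostratified epithelia. In the OE it holds HBCs, the reserve stem cells, in an undifferentiated state, and its decline precedes their exit towards neurons and supporting cells. Its known targets include the basal keratins Krt5 and Krt14, the integrins and laminins that fix basal cells to the basement membrane, and desmosome genes such as Perp. It is also known to hold down Cdkn1a and Sfn, which block the cell cycle. The gene gives long (TA) and short (ΔN) isoforms from separate promoters, and a count per gene does not separate them.

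Members of the p53 family bind pairs of half-sites whose core is CATG. The following stretches show that core next to 4 of the targets followed in the comparison. Each is the 250 bases upstream of the RefSeq start of the gene in GRCm38.p6, written 5′ to 3′ on the strand of the gene, with every CATG in capitals. They lie at chr15:101712906-101713155 (minus strand) for Krt5, chr11:100206031-100206280 (minus strand) for Krt14, chr4:133602169-133602418 (minus strand) for Sfn and chr17:29090729-29090978 (plus strand) for Cdkn1a.
Krt5: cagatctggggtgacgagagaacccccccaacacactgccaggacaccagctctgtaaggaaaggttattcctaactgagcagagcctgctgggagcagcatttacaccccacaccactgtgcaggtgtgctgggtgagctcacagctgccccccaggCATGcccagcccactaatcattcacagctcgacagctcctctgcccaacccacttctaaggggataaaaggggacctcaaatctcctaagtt
Krt14: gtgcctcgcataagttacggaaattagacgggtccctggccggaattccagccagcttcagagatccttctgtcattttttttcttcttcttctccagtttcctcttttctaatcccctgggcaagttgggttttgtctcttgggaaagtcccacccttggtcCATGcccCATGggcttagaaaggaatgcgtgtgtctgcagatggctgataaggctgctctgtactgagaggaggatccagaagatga
Sfn: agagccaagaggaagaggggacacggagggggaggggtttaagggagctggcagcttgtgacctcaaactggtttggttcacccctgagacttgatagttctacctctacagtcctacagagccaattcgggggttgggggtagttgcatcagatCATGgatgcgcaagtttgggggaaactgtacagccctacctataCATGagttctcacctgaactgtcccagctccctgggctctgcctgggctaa
Cdkn1a: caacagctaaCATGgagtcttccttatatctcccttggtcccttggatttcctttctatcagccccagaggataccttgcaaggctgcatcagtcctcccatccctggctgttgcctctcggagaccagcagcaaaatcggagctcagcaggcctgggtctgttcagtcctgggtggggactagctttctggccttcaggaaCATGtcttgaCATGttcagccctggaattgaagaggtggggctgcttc
Krt5 had 1 CATG in this window, Krt14 and Sfn had 2 each and Cdkn1a had 3. The spaced form CATGNNNNNNCATG, in which the cores of neighbouring half-sites stand 6 bases apart, was found only upstream of Cdkn1a among these 4, starting 48 bases before the start site. CATG reads the same on both strands, so 1 search covers both, and any match to the spaced form also holds 2 matches to the short one. The short form occurred in 53.9% of 32851 RefSeq promoter windows of this length and the spaced form in 161 of them (0.490%). The matches describe the letters of these windows and say nothing of binding in these cells. Of 5 genes sought, 4 had such a window, and Trp63 did not.

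Trp63 (ENSMUSG00000022510, chr16:25683763-25892102 of GRCm38, plus strand) had a scaled count of 3098 in the lowest Trp63-high sister, 9879 in the median one and 29626 in the highest. The Trp63-low sisters ran from 63.4 through a median of 4119 to 17588. The sisters overlapped as populations, with 3 low sisters above the median of the high ones and 1 high sister below the median of the low ones, since each sister was set only against its own partner. In the other 13 pairs the higher sister had a median of 8666 and the lower 7030. The ratio between sisters was 2.44 at the median of the 35 pairs, with quartiles of 1.96 and 3.39. It lay between 1.5 and 2 in 11 pairs, between 2 and 3 in 13, between 3 and 5 in 8, and above 5 in 3. The pair just inside the limit had a ratio of 1.53 and the pair just outside it 1.26, so no pair fell between these.

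**Figure D1:**
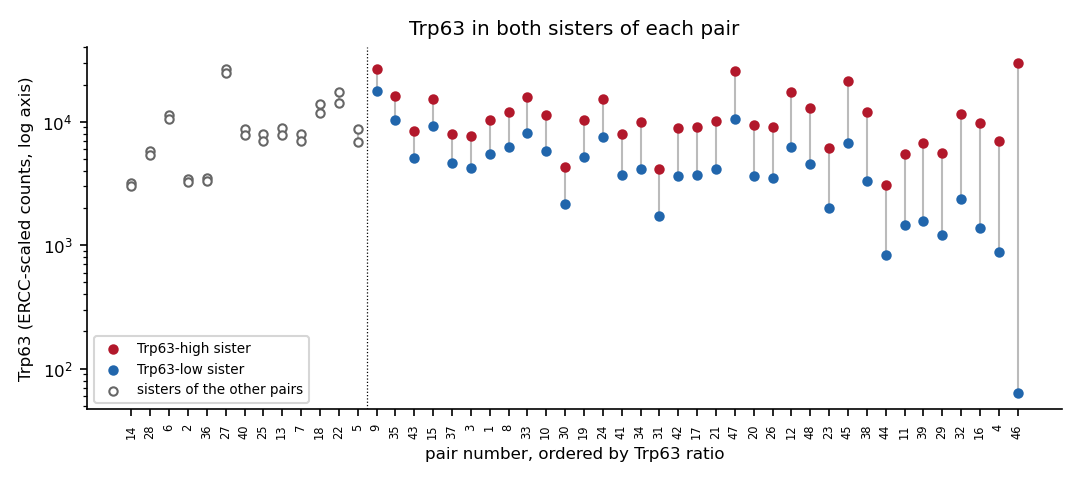
Scaled Trp63 count (log axis) of both sisters of each of 48 pairs, ordered by their ratio. Red and blue points are the Trp63-high and Trp63-low sisters of the 35 pairs taken, open points the sisters of the 13 other pairs, and the dotted line the limit between them; the last pair on the right, number 46, reaches down to 63.4.

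The 3 widest pairs were number 46 with a ratio of 467, number 4 with 7.88 and number 16 with 7.02. Between 2511 and 27003 reads were counted on Trp63 in the high sisters and between 37 and 12447 in the low ones. The 37 reads belong to pair 46 and have a Poisson interval of 26.1 to 51.0, against 19637 reads in its sister. That interval treats reads as independent, which reads amplified without molecular identifiers are not, so it leaves out the error of amplification. The cell numbered 1 was the high one in 18 pairs and the cell numbered 2 in 17. The deposited TPM data are named in 12 sets of 8 cells, and from 1 to 4 of the 4 pairs were taken per set. What the sets stand for is not stated. Of the variance of log2 Trp63 over the 48 pairs, 49.4% lay within pairs, and 35.6% without pair 46.

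Gene counts per cell ran from 29454150 to 44849003 over all 96 cells and ERCC counts from 410953 to 2014790. The Trp63-high sister had more gene counts per ERCC count in 16 of 35 pairs, at a median ratio of 0.998 and a range of 0.654 to 2.37. It had more detected genes in 17 of 35 pairs. Neither measure of RNA content leaned to the Trp63-high side. The mitochondrial share was 1.88% at the median of the high sisters and 2.16% in the low ones, and was larger in the high sister in 16 pairs. Markers of other cells were partly read. Of 13 globose basal cell and neuron markers, 10 had a read in any of the 70 cells, with summed scaled counts of 0 to 5536 in the high sisters and 1.51 to 9091 in the low ones. For 6 sustentacular and Bowman gland markers, 3 of which were read, the ranges were 0 to 8708 and 0 to 6214, nearly all of it Sox9. For 7 microvillous and ciliated cell markers, with 5 read, they were 0 to 383 and 0 to 603, and for 15 stromal, glial, endothelial and immune markers, with 8 read, 0 to 4140 and 2.16 to 7526. Kit, Cnga2, Cyp1a2, Foxi1, Col1a1 and Sox10 had 0 reads in all 70 cells, and Omp was read in 2 cells on each side. Others of these lists had at least 1 read in many cells. These were Pecam1 in 33 high and 35 low sisters, Adcy3 in 30 and 30, Cd68 in 27 and 25 and Gnal in 11 and 12. At 10 or more reads the numbers were 0 and 4 for Pecam1 and 27 and 25 for Adcy3. For Cd68 they were 19 and 20, and for Gnal 7 and 8. Their part in the results was not tested.

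By several basal genes other than Trp63, a single cell went against its label and stood apart from all others. The lowest Trp63 of the 96 cells was in a different cell, daughter 2 of pair 46, at a scaled count of 63.4. Daughter 2 of pair 4, the Trp63-low sister of that pair, had the lowest scaled count of all 96 cells for Krt5 (4248, where the other 95 cells had 9017 or more), Krt14 (434 against 1937 or more), Itga6 (90.5 against 6181 or more), Itgb4 (106 against 7298 or more) and Cd44 (44.6 against 1353 or more). It is described with pair 4 by its leading genes, and counts over genes are given with and without that pair.

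Ratios were taken across the 14463 genes with 10 or more reads in at least 10% of cells. The median over these genes of the median log2 ratio over pairs was 0, on the scale log2(scaled count + 1). A gene without reads in both sisters of a pair has a ratio of exactly 0, and such ties can hold this value at 0. It is therefore no measure of a common level. Over genes with 10 or more reads in all 70 cells, a set formed after values had been seen, the median was 0.015. A gene is said here to lie past 1.5-fold when its median ratio over the 35 pairs reached 1.5 in either direction, which is a rule of size and not a test. There were 1028 genes past 1.5-fold on the Trp63-high side (7.11% of those measured) and 689 on the Trp63-low side (4.76%). Without pair 4 these were 968 and 740. To take out a shift shared by the genes of a pair, the median of the pair over all measured genes was subtracted from each ratio. This median was exactly 0 in 24 of 35 pairs, where the subtraction changed nothing, and ran from -0.50 to 1.11 in all. A median of 0 does not show that a pair had no shared shift, since the same ties can hold it there. Pair 42, for example, had a median of 0, while its high to low ratio of gene counts per ERCC count was 0.797. On this relative scale, used from here on, 890 genes (6.15%) lay past 1.5-fold higher and 769 (5.32%) lower, and without pair 4 the numbers were 887 and 798. With the median taken only over genes that had 10 or more reads in all 70 cells, a choice made after values had been seen, they were 925 and 821.

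The spread between sisters was wider at low read numbers. Among genes with a mean of 100 to 1000 reads per cell, the median absolute log2 ratio between sisters was 2.54 over 5075 genes, and it was 2.71 for the 17 ERCC transcripts in that range, which were added alike to both sisters. At 1000 to 10000 reads it was 1.13 for 5777 genes and 0.60 for 15 ERCC transcripts, and at 10000 to 100000 reads 0.47 for 567 genes and 0.22 for 7 ERCC transcripts. Genes of low counts thus varied between sisters about as much as the synthetic RNAs did, while the better counted genes varied more than those. The ERCC transcripts were scaled by their own sum, which takes a shift of the whole cell out of them but can leave it in the genes. Its part in the difference was not tested. Trp63, with a mean of 8083 reads, had a median absolute log2 ratio of 1.29. The choice of pairs by their Trp63 ratio raised this value, so it cannot be set against the other spreads. A set of 3521 genes with 10 or more reads in both sisters of each of the 35 pairs, formed after values had been seen and called well-counted here, leaves out any gene under 10 reads in a single one of the 70 cells, and 7 of 29 mitosis genes remain in it. It held 45 genes past 1.5-fold higher (1.28%) and 24 lower (0.682%). Of the well-counted genes, Trp63 had the highest median, as the choice of pairs made likely, at 1.26. The central 95% of them lay between -0.43 and 0.48.

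Consistency over pairs was asked separately from size. In at least 24 of the 35 pairs, 187 genes (1.29%) were higher in the Trp63-high sister and 192 (1.33%) were lower. No gene other than Trp63 was higher in more than 28 pairs, and none was lower in more than 29. Genes at these ends, picked after their values were seen, were Dnajb4, an HSP40 co-chaperone (higher in 28 pairs, median 0.76), Plekha1, which binds membrane phosphoinositides (28 pairs, 0.83), and Trap1, the mitochondrial HSP90 chaperone (lower in 29 pairs, -0.80). No gene followed Trp63 in all pairs.

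The basal cell genes had ratios close to those of all genes. Of 11 basal identity genes, 0 lay past 1.5-fold in either direction, beside 6.15% and 5.32% of all genes, which in a list of this size is near the background. The median of the list was 0.02, beside 0.00 over all genes, with 6 genes above 0 and 4 below. Krt5 (ENSMUSG00000061527), the type II keratin of basal cells, had scaled counts of 34493 to 405243 in the Trp63-high sisters with a median of 100625, and of 4248 to 220960 in the low ones with a median of 101880. Its partner Krt14 (ENSMUSG00000045545) ran from 4982 through 126636 to 812207 in the high sisters and from 434 through 123229 to 265480 in the low ones. For both keratins the groups overlapped over nearly their whole range. The relative log2 ratio was 0.20 for Krt5 (quartiles -0.26 and 0.64) and 0.16 for Krt14 (-0.18 and 0.74), and each was higher in 21 of 35 pairs. Among the pairs with a Trp63 ratio of 3 or more their medians were 0.44 and 0.50, and between 2 and 3 they were -0.14 and -0.04. Over all 48 pairs the sister ratios of Krt5 and Krt14 were correlated with each other (Spearman's rho 0.63), both sharing the spike-in scaling of their cells, whereas those with Trp63 were 0.24 and 0.30, where the central 95% of genes lay between -0.29 and 0.29.

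Genes that p63 is known to activate had a list median of 0.10, with 15 of 23 medians above 0 and 5 below. Their correlation with Trp63 over 48 pairs was above 0 for 17 of the 23, at a median of 0.09. None lay past 1.5-fold higher and 1 lay lower, Chuk (-0.60), which encodes the IκB kinase α, against shares of 6.15% and 5.32% over all genes. The nearest to the limit on the high side were Trim29 at 0.57 and Pkp1 at 0.49, each higher in 22 pairs. Trim29, a tripartite-motif protein of basal epithelia, had scaled counts of 2455 to 47178 in the high sisters (median 12658) and of 55.3 to 22834 in the low ones (median 8562). Perp, a desmosome protein and a classic p63 target, had -0.07 and was higher in 16 pairs. Of 5 measured genes that p63 represses, 0 lay past 1.5-fold, with Cdkn1a, the p21 inhibitor of cyclin-dependent kinases, at 0.05 and Sfn, the 14-3-3σ checkpoint protein, at 0.13. Among 8 relatives and regulators of p63, Fbxw7, a ubiquitin ligase subunit, had -0.67 and Trp53inp1, a p53-induced stress gene, -0.76, both past 1.5-fold lower, although the value of Trp53inp1 turned to 0.045 among the 32 pairs of like RNA content.

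All 12 genes of the hemidesmosome and basement membrane list were well-counted, and their medians ran from -0.16 (Col17a1) to 0.28 (Dst). Of these medians 9 were above 0 and 3 below, and the correlation with Trp63 was above 0 for 10 of 12. The number past 1.5-fold was 0, which is near the background of 1.28% and 0.682% among well-counted genes. Itga6, the integrin α6 of the hemidesmosome, had 0.13 and was higher in 23 pairs, and its partner Itgb4 had 0.10 with 20 pairs. Of 10 desmosome genes, Dsc2, a desmosomal cadherin, lay past 1.5-fold higher at 1.04 in 23 pairs and Pkp2, a plakophilin, lower at -1.08. Dsc2 ran from 247 to 43254 in the high sisters (median 5775) and from 5.66 to 17391 in the low ones (median 3082). Pkp2 was lower in 25 pairs, with medians of 507 in the high and 1411 in the low sisters, and it was listed at 0 in the lowest cell of both groups.

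Of 14 measured wound response genes, 4 lay past 1.5-fold higher and 1 lower, and the list median was 0.21. These counts, like those of the lists that follow, stand beside 6.15% and 5.32% of all genes, so that 1 or 2 members of a list of 14 to 29 genes are near the background. Krt16, the keratin of activated and injured epithelia, had scaled counts of 13.3 to 86531 in the high sisters (median 1240) and of 2.51 to 23854 in the low ones (median 326). Its ratio was 0.84 with quartiles of -0.25 and 3.22, and it was higher in 22 pairs. Il1rn, the antagonist of the interleukin 1 receptor, had 0.99 in 21 pairs, and the EGF receptor ligands Areg and Ereg had 0.81 and 0.80 in 23 pairs each. None of these 4 reached 24 pairs, and all had wide quartiles. In the other 13 pairs, where the Trp63 ratio was at most 1.26, Krt16 had 0.86 and Il1rn 1.03. Sprr1a, a precursor of the cornified envelope, was the member past 1.5-fold lower at -1.22, but it was lower in only 18 of 35 pairs and turned to 0.45 or higher when cells were scaled to their library total or by ratios over genes and the pairs chosen anew. Of 8 EGF family genes the same Areg and Ereg were the only members past 1.5-fold. Of 19 squamous differentiation genes, only Evpl, a cornified envelope protein, lay past 1.5-fold, at 0.60.

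**Figure D2:**
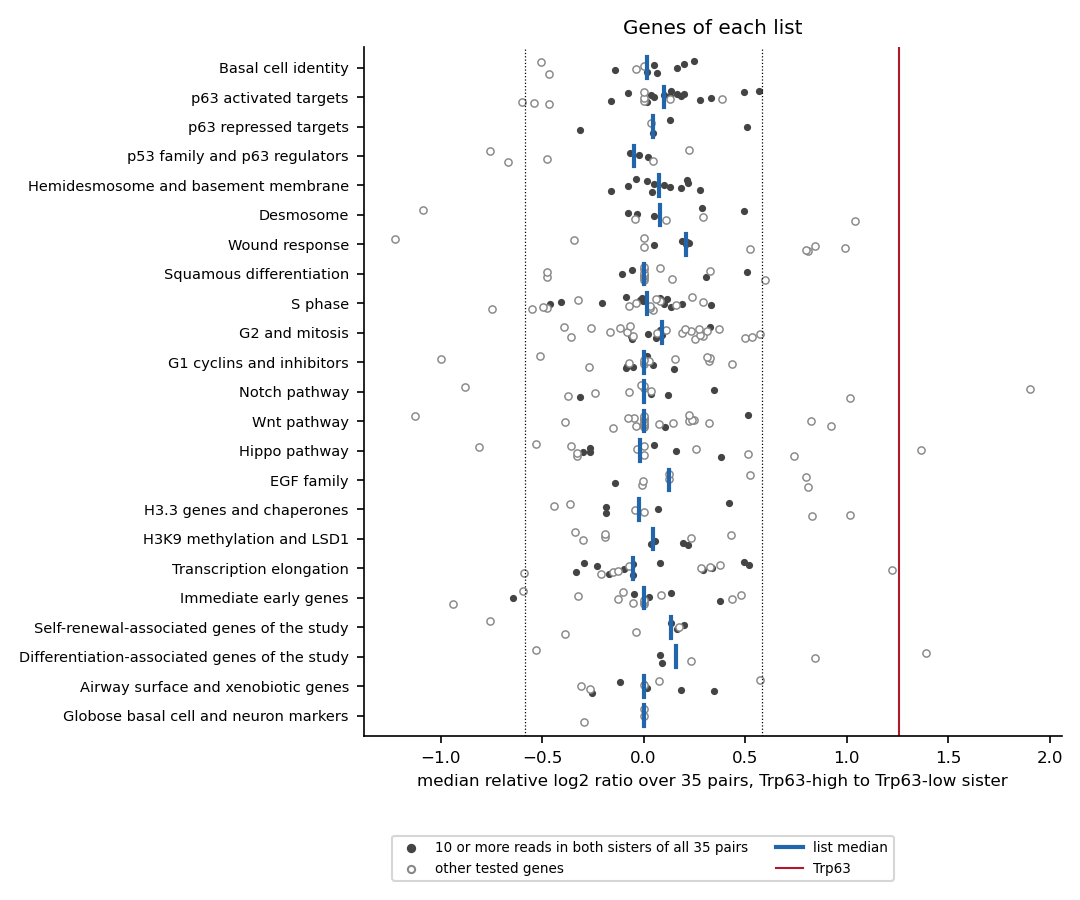
Median relative log2 ratio over 35 pairs of each measured gene (points) in the lists with 3 or more measured genes, those of ribosomal proteins and oxidative phosphorylation not drawn. Filled points are well-counted genes, open points the rest, blue bars list medians, the red line Trp63 at 1.26 and dotted lines 1.5-fold; the bars lie between -0.05 and 0.21 and the points far from 0 are mostly open.

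The cell cycle lists were centred on 0. None of 29 G2 and mitosis genes lay past 1.5-fold (median 0.09), nor did any of 28 S phase genes but Cdc45, a helicase factor at -0.75 (list median 0.01), whose mean over pairs was 0.10. Mki67, the Ki67 proliferation marker, ran from 96.6 through 14454 to 105579 in the high sisters and from 75.4 through 13330 to 89368 in the low ones, with a ratio of 0.08 and 18 of 35 pairs higher. Top2a, the topoisomerase of dividing cells, had 0.33 in 20 pairs and Cdk1, the mitotic kinase, 0.02 in 19 pairs. E2f3 was the only one of 19 G1 cyclins, inhibitors and E2F genes past 1.5-fold, at -0.998.

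Signalling lists held a few genes in each direction. Of 14 Notch genes, the receptor Notch3 (1.90, higher in 23 pairs) and the ligand Dll1 (1.02) lay past 1.5-fold higher and the Notch antagonist Numb lower (-0.88), while Notch1 had 0.04 and Jag1 0.12. Notch3 was listed at 0 in the lowest cells of both groups and had 10 or more reads in both sisters of only 19 pairs. Of 27 Wnt genes, the receptors Fzd1 (0.92) and Lrp5 (0.83) were higher and the ligand Wnt5a lower (-1.12). Of 18 Hippo genes, the scaffold Sav1 (1.37) and the YAP target Ccn1 (0.74) were higher and the DNA-binding partner Tead2 lower (-0.81). Ccn1 was higher in 24 pairs, with medians of 5167 and 3407. Medians of these 3 lists were 0.00, 0.00 and -0.02. By deposited TPM, with pairs chosen on it, Dll1 and Sav1 were at 0.17, Fzd1 at 0.06, Wnt5a at -0.03 and Tead2 at -0.04. Notch3 and Ccn1 were at 0.47 and 0.35 by TPM. In all settings tried, Numb stayed at -0.46 or lower and Lrp5 at 0.68 or higher. Of 17 immediate early genes, the phosphatase Dusp1 (-0.94), Ier2 (-0.64) and the mRNA-decay factor Zfp36 (-0.59) lay past 1.5-fold lower, while Fos had 0.37 and Jun -0.32. Dusp1 was lower in 25 pairs and Ier2 in 24.

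The study asks how histones and transcription differ between daughters, so genes for H3.3, H3K9 methylation and elongation were followed. The H3.3 genes H3f3a and H3f3b had 0.07 and -0.19. Of 10 genes for H3.3 and its chaperones, both Asf1 chaperones lay past 1.5-fold higher, Asf1a at 0.83 in 25 pairs and Asf1b at 1.02 in 24. Asf1b ran from 8.11 through 3174 to 11480 in the high sisters and from 0 through 1386 to 9487 in the low ones, and Asf1a from 0 through 999 to 3844 and from 0 through 509 to 2344. The other 8, Hira and Daxx among them, did not reach 1.5-fold, and the list median was -0.02. Of 10 H3K9 methylation and LSD1 genes 0 lay past 1.5-fold, with Suv39h1, an H3K9 methyltransferase, at -0.19. Of 21 elongation genes, Hexim1, an inhibitor of P-TEFb, was past it at 1.22 and Cdk12, a kinase of RNA polymerase II, at -0.59, the latter turning to 0.085 among pairs with a Trp63 ratio of at least 2. Polr2b, the second largest subunit of RNA polymerase II, stayed under 1.5-fold at 0.52 but was higher in 27 of 35 pairs, with quartiles of 0.11 and 0.86 and medians of 7169 and 4978. The elongation factor Supt5 had 0.49 in 24 pairs.

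Genes that the study associates with self-renewal and with differentiation were chosen on these same cells, so their counts are not independent evidence of a direction. Of 7 self-renewal-associated genes other than Trp63, 1 lay past 1.5-fold, Trp53inp1, and the median was 0.14. Myc had 0.14, Fzd7 -0.39 and Icam1 -0.04. Of 6 differentiation-associated genes, Krt16 and Sox9 (1.39, higher in 20 pairs) lay past 1.5-fold higher, and the median was 0.16. The second median was -0.04 when cells were scaled by TPM and the pairs chosen on it, and 0.67 among pairs with a Trp63 ratio of at least 2, where the first was -0.02.

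**Figure D3:**
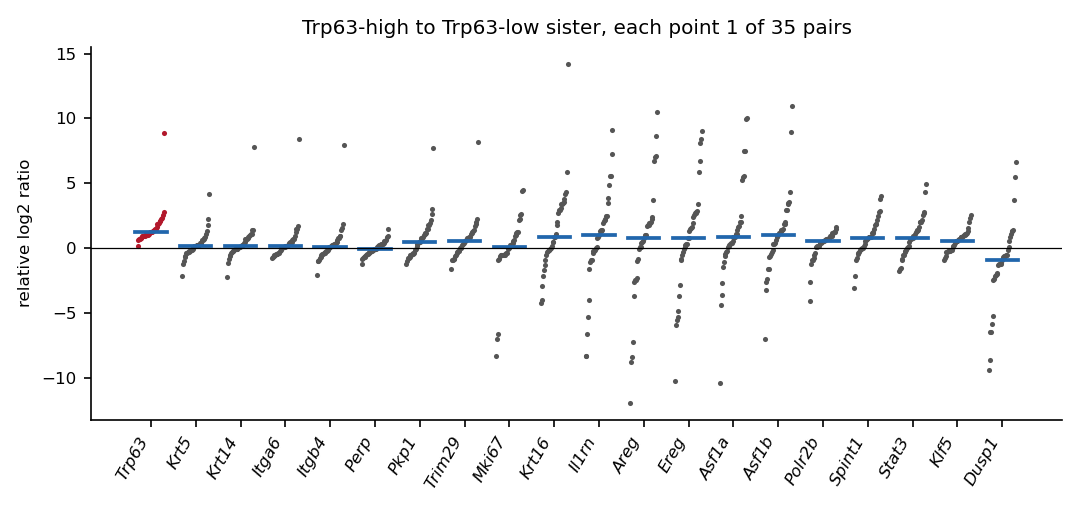
Relative log2 ratio of the Trp63-high to the Trp63-low sister for 20 genes, each point 1 of 35 pairs, with the median as a blue bar. Trp63 (red) is above 0 in all 35 pairs by the choice of pairs, while Krt5, Krt14 and the other genes have points on both sides of 0.

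The 3 pairs with a Trp63 ratio above 5 differed from each other in kind. In pair 46, cell cycle transcripts were in the sister with little Trp63. The G2 and mitosis list had a median of -7.45 (28 of 29 genes lower in the Trp63-high sister) and the S phase list -4.04 (25 of 28 lower). Cdc20, the activator of the anaphase-promoting complex, had 35 reads in the Trp63-high and 16108 in the Trp63-low sister, and Top2a had 63 and 16818. On the other side, 17 of 19 squamous genes and 12 of 14 wound response genes were higher in the Trp63-high sister, at medians of 1.25 and 1.94. Sprr3, a precursor of the cornified envelope, had 68176 against 32 reads, Ccn2, a YAP target, 18644 against 7, Plau, the urokinase, 9861 against 4, and Ppl, periplakin, 18070 against 246. These were picked as leading genes of the pair after their values were seen. The basal list had a median of 0.11. That of the hemidesmosome and basement membrane list was 0.02, with 6 genes higher and 6 lower, from Lama5, a laminin chain, at 2.83 to Itgb1, the integrin β1, at -1.19.

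In pair 4 both sisters were low in Mki67, with 127 and 120 reads, and the Trp63-low sister had few reads of several basal genes. Trp63 itself had 7524 and 1403 reads. Krt14 had 137110 reads in the Trp63-high and 691 in the Trp63-low sister, Krt6a 787008 and 905, Krt17 416829 and 769, Itga6 44964 and 144, and Itgb4 38024 and 169. The basal list had a median of 4.20, with 7 of 11 genes higher in the Trp63-high sister and 4 lower. The hemidesmosome list had 3.98 with 11 of 12 genes higher in that sister, and the p63-activated list 2.15 with 18 of 23. The simple keratins Krt8 and Krt18 were also lower in the Trp63-low sister but by less, with scaled counts of 124704 and 44464 for Krt8 and of 165898 and 54049 for Krt18. The Trp63-high sister led all 96 cells in Krt16 (93688 reads against 4), Cnfn, cornifelin (423062 against 43), and Ly6d (42268 against 0). The Trp63-low sister was led by Ugt2a1, an olfactory glucuronosyltransferase (174005 reads against 41), Cyp2a5, a nasal and hepatic cytochrome P450 (259709 against 87), Sftpd, surfactant protein D (32646 against 15), and the small proline-rich Sprr2f (135168 against 36), and it had the highest scaled count of the 96 cells for each of these 4. Aqp5, a gland and airway water channel, was high in both, at 234710 and 326492 reads. No cell type name is given to this cell.

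Pair 16 showed no such division in its basal and mitosis genes. Its basal, p63-activated, hemidesmosome and mitosis lists had medians of -0.62, -0.20, -0.23 and -0.18. Other lists leaned more to a side in this pair. The S phase list was at -0.48 (6 genes higher, 22 lower) and the G1 cyclins and inhibitors at -1.05 (6 higher, 13 lower). The immediate early genes were at 0.85 (11 higher, 5 lower). Its leading genes differed by less than in the other pairs, with Mal, a membrane raft protein, at 10753 against 1056 reads on the high side and Egfr, the EGF receptor, at 1586 against 12002 on the low side. A 7.02-fold difference in Trp63 was thus seen with list medians of under 1 for basal and mitosis genes.

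Seen pair by pair, the lists moved in some pairs rather than over all of them. The median of the G2 and mitosis list was at least 1 in 5 pairs, led by pair 38 at 6.66 and pair 17 at 5.26, and at most -1 in 4 pairs, where pair 46 was followed by pair 41 at -2.47, pair 3 at -1.69 and pair 8 at -1.67. The sister with more mitosis transcript was thus the Trp63-high one in some pairs and the Trp63-low one in others. The squamous list reached 1 in 5 pairs, 4, 8 (3.45), 3 (2.75), 46 and 45, and -1 in 1 pair, number 38 (-1.65). In pairs 3, 8 and 46 the sister with more squamous and more Trp63 transcript was the one with less of the mitosis genes, and in pair 38 the Trp63-high sister had more of the mitosis and less of the squamous genes. Other pairs did not show this, with mitosis medians of 0.24 in pair 4 and -0.20 in pair 45 and squamous medians of 0.33 in pair 17 and 0 in pair 41. The wound response list reached 1 in 5 pairs and -1 in 0, and the immediate early list 1 in 1 pair and -1 in 7. The basal and hemidesmosome lists reached 1 in pair 4 only, and -1 in none. Among short lists, the differentiation-associated genes of the study reached 1 in 11 pairs and -1 in 3. The EGF family list reached 1 in 7 pairs and -1 in 5.

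**Figure D4:**
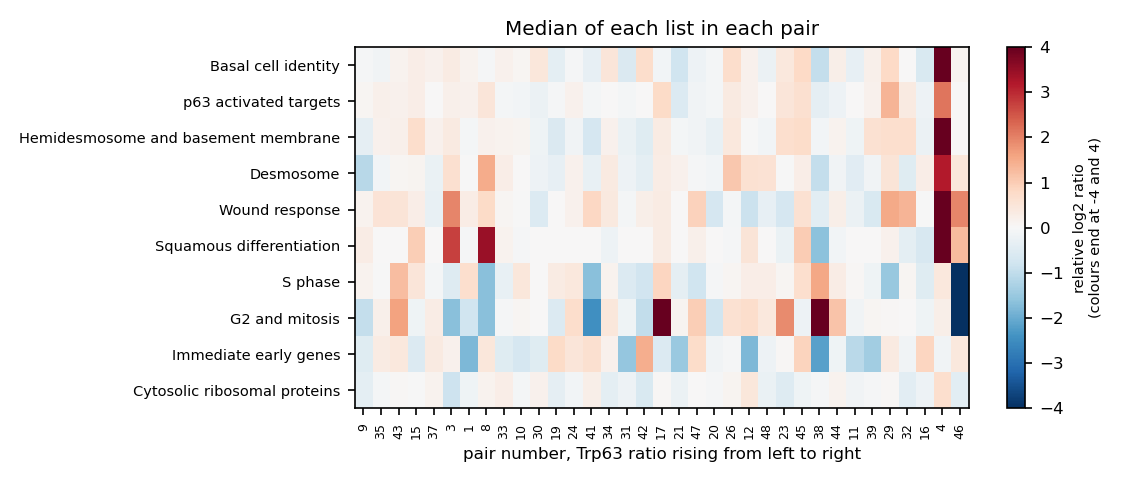
Median relative log2 ratio of 10 lists (vertical) in each of 35 pairs (horizontal, Trp63 ratio rising to the right), as colours that end at -4 and 4, red where the Trp63-high sister was higher. The columns of pairs 4 and 46 at the right hold several of the strongest colours. Pairs 38 and 17 each have a full red cell for G2 and mitosis, and pair 8 a strong red one for squamous differentiation (3.45). Most other cells are pale.

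The share of well-counted genes that differed at least 2-fold between the sisters was 22.0% in pair 10, the lowest, and 52.4% in pair 4, the highest, with 37.0% in pair 46. The largest Trp63 ratio was therefore not the pair with the largest share of differing genes.

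By the rule on size and consistency, the 15 genes with the highest ratio among those higher in at least 24 pairs were Gpr137 (4.35), the activin receptor Acvr1b (3.49), Tmtc2, Ranbp6, Snx33, Zfp668, Gm20604, Ppp1r37, Ttc19, Fam107a (1.83), Dapk2, Selenoo, Gm14410, Mrgbp and H2-Q7 (1.62). The 15 lowest were Eva1a (-3.58), Iqcb1, Zfp87, Lacc1, Zc3h7b, Zfp825, Zfp408, Tmem237, Tmem125, Apmap, Prcp, the imprinted Peg3 (-1.71), Mlst8 of the mTOR complexes (-1.70), the tubulin Tubb2a and the coactivator Ncoa2 (-1.59). These were genes of few reads, with means of 63.5 to 909 per cell for the higher and 267 to 1496 for the lower, and both sisters had 10 or more reads in only 4 to 28 and 9 to 32 of the 35 pairs. Gpr137, for example, ran from 0 through 312 to 1394 in the high sisters and from 0 through 8.04 to 1027 in the low ones. For the median gene of either group, 1 sister had fewer than 10 reads while the other had 10 or more in 15 of 35 pairs. In the other 13 pairs, 6 of the 15 higher and 9 of the 15 lower genes had the same sign.

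Among well-counted genes, ranked after values had been seen, the 10 highest beside Trp63 were Dip2b (1.18), Uimc1 (0.97), Hsd17b7 (0.93), Nudt4 (0.92), Peak1 (0.85), Spint1 (0.81), Pard6g, Stat3 (0.81), Coro2a (0.80) and Atg101 (0.77). Spint1 (ENSMUSG00000027315), an epithelial inhibitor of membrane-anchored serine proteases, ran from 989 through 7188 to 24710 in the high sisters and from 249 through 4902 to 21666 in the low ones, and it was higher in 25 pairs. Stat3, the transcription factor downstream of interleukin 6 family receptors, had medians of 3554 and 2415 and was higher in 24 pairs. Klf5, a transcription factor of basal epithelial proliferation, lay at 0.58, just under 1.5-fold, with medians of 9552 and 6047 and 24 pairs. The 10 lowest were Smarca2 (-1.10), a SWI/SNF ATPase, Zmynd11 (-1.03), a reader of methylated H3.3, Med13l, Ltbr (-0.92), Exosc2 (-0.78), Ccdc58, Ube3b, Rnf13, 1110038B12Rik and Tnrc6c (-0.69). Zmynd11 had medians of 1358 in the high and 2426 in the low sisters and was lower in 24 pairs. In the other 13 pairs 7 of the 10 higher and 2 of the 10 lower genes had the same sign, and 1110038B12Rik turned to 0.065 over all 48 pairs.

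Likeness to Trp63 was measured by Spearman's rho between sister ratios over all 48 pairs, with daughter 1 set against daughter 2. Its points share the spike-in scaling and the pair median, and it is a description over 48 pairs. Over the 10715 genes that were read well enough for the rule, rho ran from -0.50 to 0.56, and its central 95% from -0.29 to 0.29. Spint1 was the gene most like Trp63 (0.56, and 0.61 without pair 46). Others of the 10 most like it were Rpph1 (0.50), Acat3 (0.50), Fam107a (0.48), Atp6v1b2 (0.47), Klf5 (0.47), Zfp35 (0.46), Gm6375 (0.45) and Sdc1 (0.44), a heparan sulfate proteoglycan of the epithelial surface. Among the 10 most opposed were Rpl27-ps1 (-0.50), 9530068E07Rik (-0.49), Zfp644 (-0.49), Zmynd11 (-0.48), Loxl3 (-0.47), Gm19503 (-0.47), Ndufa11 (-0.47), Zfp408 (-0.46) and Htra2 (-0.44). Neither a basal keratin nor an integrin was among the 20. Pseudogenes such as Rpl27-ps1 share sequence with their parent genes, and their reads are uncertain.

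Ribosomal protein genes, followed after values had been seen, stood slightly to the Trp63-low side. Of 85 measured, 75 had a median below 0 and 10 above, and the list median was -0.09. In at least 24 pairs, 15 of the 85 were lower in the Trp63-high sister, beside 1.33% of all genes and 2.33% of well-counted ones. Their share of all gene counts was 5.33% at the median of the high sisters and 5.80% in the low ones, larger in the high sister in 11 of 35 pairs. The Spearman correlation with Trp63 was below 0 for 82 of the 85, at a median of -0.17. The sizes were small, with 1 of 85 past 1.5-fold. The median stayed below 0 under 5 other scalings, from -0.10 to -0.07, with 72 to 80 of the 85 genes below 0. Transcript length moved with them, since well-counted genes under 1000 bases had a median of -0.06 over 607 genes and those of 8000 bases or more 0.05 over 209, and its part in the result was not tested. Of 85 nuclear genes of oxidative phosphorylation, 52 had a median below 0 (list median -0.07), and the 36 mitochondrially encoded genes had a median of -0.03.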

How the data were processed

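Sequencing libraries were made singly from 96 daughter cells by G&T-seq, in which poly(A) RNA is caught on oligo-dT beads and amplified without molecular identifiers, so reads are not independent molecules and strand is not marked. Per the labels and methods, the authors trimmed reads with Trimmomatic 0.39, aligned them with STAR 2.7.11a to GRCm38 with the ERCC sequences and quantified genes with StringTie 2.2.1. The deposited table holds raw counts per gene and cell. The deposited TPM per cell, which the authors scaled for length and library size, were used as an alternative only.

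Counts were divided by the summed ERCC count of the cell relative to the median cell. Sister ratios were log2((high + 1)/(low + 1)), and the relative ratio subtracts the median of the pair over the 14463 genes measured, those reaching 10 counts in 10% of the cells. The added 1 shrinks the ratio of genes with few counts. A gene at 0 in 1 sister can still have a large ratio, such as Gpr137 in pair 46, with 739 against 0 reads (10.1). Genes were called past 1.5-fold on the median over pairs. Calculations used Python 3.11.15, numpy 2.4.6, scipy 1.17.1, pandas 2.3.3 and matplotlib 3.10.9. The median relative ratio over pairs was tested on simulated counts with known ratios. That simulation changed only genes above a set mean count and tested no ranking of genes. No mouse or culture is named, so no test was made. Intervals are exact (Clopper-Pearson or Poisson) and cover counting error only. The members and lists were chosen with earlier results of these data known. Named genes were Trp63 and genes of the lists, the 15 with the highest and 15 with the lowest relative ratio among genes with 10 or more counts in a sister of at least 24 pairs and the same sign in at least 24 pairs, and the 10 most and 10 least like Trp63 by Spearman's rho. A few genes that these rules name are not reported here. Genes named as well-counted, as higher or lower in most pairs, as leading a single pair, or as ribosomal or mitochondrial were chosen after their values were seen. Antisense, overlapping and paralogous genes were not separated. Alternatives were 5 other scalings or choices of scaled pairs, other limits for Trp63 and for low counts, another pseudocount, the mean over pairs, and leaving out pairs or naming sets.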

Additional observations from a re-analysis of the deposited data

How the results depend on the processing

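Under other scalings of the cells 35, 33, 33 and 33 pairs were taken (ERCC ratios, library total, ratios over genes and deposited TPM), of which 35, 32, 31 and 30 were among the 35 reported, all with the same Trp63-high sister. Of 1028 genes higher and 689 lower (890 and 769 on the relative scale), TPM gave 410 and 351 on both scales. With a Trp63 ratio of at least 2, which kept 24 pairs, 1688 were higher (1437 relative), and over all 48 pairs 653 were higher. A pseudocount of 10 gave 438 lower (485 relative). The mean over pairs gave 2469 and 1822 (2331 and 1924 relative), and the well-counted genes alone, an alternative chosen after the data were seen, 52 and 20 (36 and 25 relative), where fewer genes were measured. For the other settings the cause was not tested. Each other alternative left all 4 counts within 1.5 times the reported ones. These were the scalings other than TPM, leaving out pair 46 (1035 and 699) or, chosen after the data were seen, pair 4, centring on well-counted genes, also chosen then, no filter on low counts, a stricter one, 32 pairs of like RNA content, and each of the 12 naming sets in turn. Of 119 named genes, 5 that lay past 1.5-fold changed sign in some setting, as did some nearer 0. Sprr1a, reported at -1.22, was at 0.45 by library total, 0.58 by ratios over genes, 0.46 with a Trp63 ratio of at least 2, 0.32 over all 48 pairs and between -1.49 and 0.46 when each naming set was left out, the highest without set 8. Trp53inp1, reported at -0.76, was at 0.045 in pairs of like RNA content and between -1.11 and 0.65 when each naming set was left out, the highest without set 12, Cdk12 at 0.085 with a Trp63 ratio of at least 2, 1110038B12Rik at 0.065 over all 48 pairs and Cdc45 at 0.10 by the mean. Other named genes kept their sign but came near 0 by TPM, such as Fzd1 (0.06), Wnt5a (-0.03) and Tead2 (-0.04). The medians of 25 lists moved by less than their SD over pairs in all settings tried, and those near 0 changed sign in some. That SD is a loose limit, since list medians differed widely between pairs. Within it, the sustentacular and Bowman gland list, of 1 measured gene, went from 1.39 to 0.09 by TPM. The stromal, glial, endothelial and immune list, also of 1 measured gene, went from 0 to 1.74 in pairs of like RNA content. Precision is lowest for genes of few reads, whose ratios between sisters spread as widely as those of spike-in RNAs of like read number, and the part of sequencing depth in this was not tested.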
